A study of Mus musculus with 16 samples.

Results

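Messenger RNA of the hypoxia-inducible factors and of the proteins that control their stability and activity was measured by microarray in mouse lung. The set holds 8 genes: the 3 alpha subunits Epas1, Hif1a and Hif3a, their shared partner Arnt, the prolyl hydroxylases Egln1 and Egln3, the ubiquitin ligase subunit Vhl and the asparaginyl hydroxylase Hif1an. Members were taken by gene symbol, as every probe set annotated to exactly 1 of these symbols. A probe set is a group of short probes designed against one transcript region. Of the 8 symbols, 7 had such a probe set, with 15 probe sets in all out of 22626 tested, and 7 genes out of 12393 with a probe set of 1 symbol; Hif1an was not analysed here. The genes were proposed with their values across the 4 genotype-by-exposure groups in view, so their differences between these groups are given as descriptions, without p-values.

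The 16 arrays held RNA from the left lungs of 16 mice on the C57BL/6 background, 1 mouse per array, with a mean age of 14 weeks. Wildtype mice breathed room air (4 mice) or ozone, an oxidant air pollutant, at 0.3 ppm (4 mice). Adiponectin-deficient mice, which lack a hormone secreted mainly by fat cells, breathed room air (4 mice) or ozone at 0.3 ppm (4 mice). Exposure lasted 72 hours in every group, and each group had 2 males and 2 females. The labels name the deficiency without saying which part of the gene is missing. The free description of wildtype ozone female 1 names room air, whereas its title and its exposure label name ozone; it was kept with ozone. Values are log2 of the deposited linear intensity, so differences are ratios of intensity on the log2 scale. Since a probe set's brightness depends on its probes, levels are compared between arrays and not between probe sets.

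Cells keep an oxygen-sensing switch in constant turnover. In the presence of oxygen the EGLN prolyl hydroxylases mark the HIF alpha subunits, the VHL protein recognises the mark, and the subunit is ubiquitinated and degraded; when oxygen falls the subunit persists, pairs with ARNT and activates genes of glycolysis, angiogenesis and iron handling through sites that contain the core RCGTG. In the lung, EPAS1, also called HIF-2 alpha, is best known from endothelial and alveolar type 2 cells, whereas HIF-1 alpha is made in nearly all cells. Because the alpha proteins are controlled mainly by degradation, messenger RNA reports on only one layer of the switch.

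The promoters of the members show where the same HIF core lies in front of the genes that encode the pathway itself, and 3 are printed: Egln1, the hydroxylase with 1 probe set lower on every ozone array than on any air array, Hif1a, whose promoter holds the most matches, and Vhl, which holds none. RefSeq gave a promoter for 7 of the 8 symbols on GRCm38.p6 (Epas1 had no entry). Each line gives the 250 bases before the annotated start, 5′ to 3′ on the gene's own strand, in lower case with every match to ACGTG or GCGTG on either strand in capitals.
Egln1: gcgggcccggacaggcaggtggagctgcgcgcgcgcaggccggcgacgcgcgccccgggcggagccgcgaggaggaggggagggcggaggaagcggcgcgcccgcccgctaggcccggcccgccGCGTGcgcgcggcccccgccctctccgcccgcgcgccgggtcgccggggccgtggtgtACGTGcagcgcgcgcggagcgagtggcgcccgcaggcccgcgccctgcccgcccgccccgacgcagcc
Hif1a: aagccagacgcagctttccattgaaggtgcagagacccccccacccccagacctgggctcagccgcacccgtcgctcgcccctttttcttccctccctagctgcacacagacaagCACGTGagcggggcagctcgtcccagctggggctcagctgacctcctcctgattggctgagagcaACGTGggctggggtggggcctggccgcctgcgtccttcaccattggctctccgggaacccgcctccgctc
Vhl: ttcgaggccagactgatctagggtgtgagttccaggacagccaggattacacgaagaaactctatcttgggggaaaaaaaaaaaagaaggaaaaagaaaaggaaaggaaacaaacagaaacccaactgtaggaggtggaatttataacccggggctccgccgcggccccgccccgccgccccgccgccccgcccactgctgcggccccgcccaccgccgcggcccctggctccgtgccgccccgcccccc
The Egln1 stretch lies at chr8:124949255-124949504 on the minus strand, that of Hif1a at chr12:73907617-73907866 on the plus strand, and that of Vhl at chr6:113623744-113623993 on the plus strand. Counted from the start, Egln1 held GCGTG at -126 and ACGTG at -68. Hif1a held ACGTG at -70 and an overlapping pair at -135 and -134, 1 match on each strand of the same palindrome. Single or paired matches were also found for Hif3a, Arnt and Egln3, so that 5 of the 7 promoters held at least 1. Of all 32851 RefSeq promoters of this length, 38.6% held either motif, 16.6% held ACGTG and 28.2% held GCGTG. A match describes the letters and was not measured as binding.

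The arrays were checked against their labels first. The median intensity of an array ranged from 145.9 to 153.7. Summed Y-linked signal separated all males (log2 7.87 to 8.76) from all females (5.65 to 5.82). This and every summed log2 below is the log2 of the added linear intensities of a list, so its brightest genes weigh most. The summed signal of dividing cell markers was 10.91 on wildtype ozone female 1, whose description names room air. That value lay within the range of the ozone arrays (10.68 to 11.60) and above all air arrays (8.19 to 8.62). Adipoq, which encodes adiponectin, read 7.19, 8.05, 11.52 and 8.89 in wildtype air, 7.70 to 8.76 in wildtype ozone, 6.07 to 6.36 in deficient ozone, and 6.32, 6.43, 6.97 and 8.82 in deficient air. The last of these, from the array labelled deficient air female 2, lay within the wildtype range. That array and wildtype air female 1 also carried the signal of fat markers (summed log2 9.47 and 9.75, at most 7.69 on the other arrays), and deficient air male 2 carried striated muscle markers (14.24, at most 9.43 elsewhere) and squamous epithelium markers (13.63, at most 8.51 elsewhere). Results are therefore also given with those 3 arrays, which carried markers of other tissues, left out. Alveolar type 2 markers such as Sftpc were high on all arrays, with a summed log2 of 16.17 to 16.51.

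Of the 15 probe sets, those of Epas1, Egln1 and Vhl carried the ozone differences that appeared in both genotypes. Epas1 was lower in ozone by more than any other member, 1 of the 2 Egln1 probe sets was lower, Vhl was higher, and the main Hif1a probe set stayed within 0.19 on the log2 scale. In wildtype mice 5 of 15 probe sets passed an adjusted p of 0.05 in limma's test over all probe sets, 2 higher and 3 lower, beside 36.3% of all probe sets (18.2% higher and 18.2% lower). In deficient mice 4 passed, 1 higher and 3 lower, beside 29.3% of all probe sets (14.5% higher and 14.8% lower). The median difference of the members was -0.10 in wildtype and -0.07 in deficient mice, against medians of 0.02 and 0.0022 over all probe sets. Nothing is read from these counts, since the members were chosen with this contrast known.

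**Figure D1:**
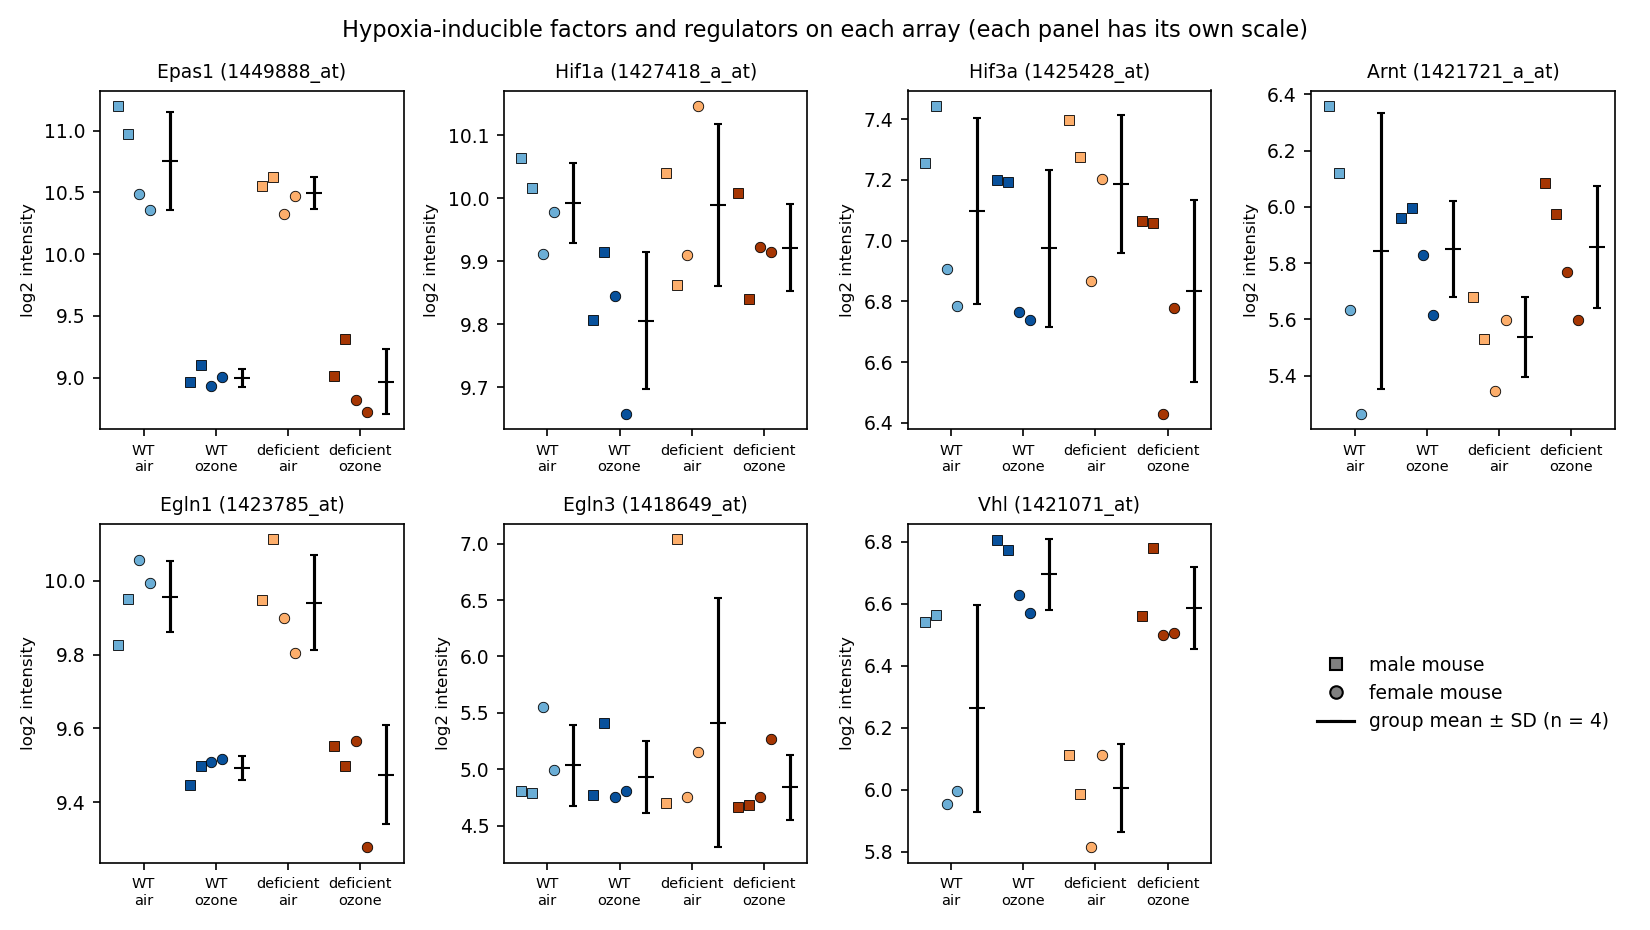
Log2 intensity of the brightest probe set of each of the 7 genes (vertical axis, a separate scale in each panel) in the 4 groups (horizontal axis); squares are males, circles are females, and bars give the mean ± SD of 4 mice. Epas1 and Egln1 separate the 8 ozone arrays from the 8 air arrays, and Egln3 has 1 high array, deficient air male 2 at 7.04.

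Among the alpha subunits, Epas1 (probe set 1449888_at) had the widest spread between groups. In wildtype air it read 11.20 and 10.97 in the males and 10.48 and 10.35 in the females. In wildtype ozone it read 8.97, 9.10, 8.93 and 9.002 in the same order. The ozone values were low and close together, and none reached the lowest air value. In deficient air it read 10.55, 10.62, 10.32 and 10.47, and in deficient ozone 9.01, 9.31, 8.82 and 8.72. Again no ozone array overlapped an air array, and over both genotypes the 8 ozone arrays (8.72 to 9.31) lay below the 8 air arrays (10.32 to 11.20). The members with no such overlap were Epas1 and 1 probe set of Egln1, beside 14.5% of all probe sets.

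In intensity, Epas1 averaged 1725 in wildtype air, 1441 in deficient air, 511.9 in wildtype ozone and 500.7 in deficient ozone (means of the log2 values, n = 4 each), so the order of the groups was set by exposure first. The ozone difference was -1.75 ± 0.11 (SE) in wildtype mice, 3.37-fold lower, and -1.52 ± 0.11 in deficient mice, 2.88-fold lower. In females alone the Epas1 differences were -1.45 in wildtype and -1.63 in deficient mice, and in males alone -2.05 and -1.42. The differences over both sexes were the 16th and the 33rd largest falls of 22626 probe sets. Neighbouring groups in the order overlapped: wildtype air (10.75 ± 0.40, SD, n = 4) with deficient air (10.49 ± 0.13), and wildtype ozone (8.9996 ± 0.07) with deficient ozone (8.97 ± 0.26). Deficient minus wildtype was -0.26 ± 0.11 in air and -0.03 ± 0.11 in ozone, and the ozone difference was smaller by 0.23 ± 0.16 in deficient mice. With the 3 arrays carrying other tissues' markers left out, the ozone differences were -1.79 and -1.47. In whole lung, fewer cells of a type and less RNA per cell cannot be told apart.

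**Figure D2:**
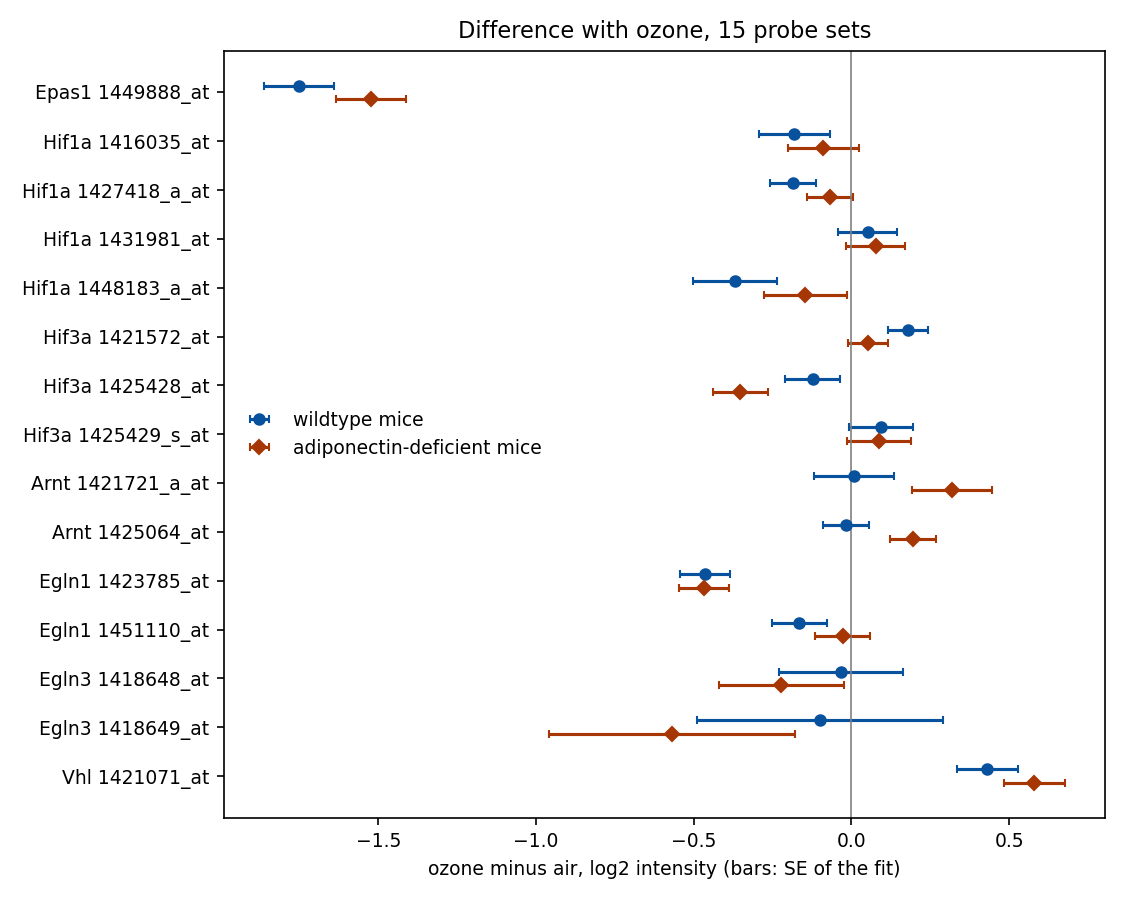
Ozone minus air in log2 intensity (horizontal axis) for the 15 probe sets (rows), in wildtype mice (circles) and adiponectin-deficient mice (diamonds); bars are the SE of the fit. Epas1 stands at -1.75 and -1.52, while every other probe set lies between -0.57 and 0.58.

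Because Epas1 is an endothelial and epithelial gene, the markers of those cells are set beside it. Counts of markers are read against the share of all genes called by limma: 19.5% higher and 17.0% lower in wildtype mice, 15.6% and 14.5% in deficient mice. Of 14 endothelial markers, 3 fell with ozone in wildtype mice (Sox17 by 0.79, Erg by 0.61 and Emcn by 0.29 on the log2 scale) and 11 did not pass. In deficient mice Sox17 fell by 0.82, while Cdh5, Tie1 and Cldn5 rose by 0.56, 0.36 and 0.28. The Cdh5 call was lost with the 3 arrays carrying other tissues' markers left out (limma, adjusted p = 0.0534). Another Cdh5 probe set fell in wildtype mice. The summed endothelial signal was 14.52 to 14.76 in wildtype air, 14.50 to 14.72 in wildtype ozone, 14.44 to 14.59 in deficient air and 14.54 to 14.75 in deficient ozone, with overlap of air and ozone arrays in both genotypes. Of 9 lung capillary markers, Ednrb fell by 1.24 in wildtype and 0.98 in deficient mice, Fibin and Sema3c fell in both genotypes, and Car4 rose in deficient mice by 0.40. Their summed signal was 13.54 to 13.66, 13.22 to 13.54, 13.36 to 13.59 and 13.32 to 13.46 in the same order of groups, without overlap in wildtype mice and with overlap in deficient mice.

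Of 9 alveolar type 2 markers none passed the test as lower (limma); Sftpd and Abca3 rose in wildtype mice and Sftpd and Sftpb in deficient mice. Of 5 alveolar type 1 markers, Ager rose in both genotypes by 0.31 and 0.26, Aqp5 rose in wildtype mice and Hopx fell in deficient mice by 0.23. Of 7 fibroblast and pericyte markers, 4 fell in wildtype and 3 in deficient mice, with Npnt, Pdgfra and Tcf21 falling in both. Their sum was 13.61 to 13.77 in wildtype air against 13.00 to 13.48 in ozone, and 13.56 to 13.71 in deficient air against 13.14 to 13.46 in ozone, without overlap in either genotype. All 5 markers of dividing cells rose in both genotypes, with a summed log2 of 8.19 to 8.62 in air and 10.68 to 11.60 in ozone. The part of these cell populations in the Epas1 difference was not tested.

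Hif1a, the most widely expressed alpha subunit, had 4 probe sets and small ozone differences. The brightest, 1427418_a_at, read 10.06, 10.02, 9.91 and 9.98 in wildtype air (males 1 and 2, then females 1 and 2) and 9.81, 9.91, 9.84 and 9.66 in wildtype ozone. In deficient mice it read 10.04, 9.86, 9.91 and 10.15 in air and 10.01, 9.84, 9.92 and 9.92 in ozone. Air and ozone arrays overlapped in deficient mice, and in wildtype mice the highest ozone value only just exceeded the lowest air value. The differences were -0.19 ± 0.07 and -0.07 ± 0.07. A dimmer probe set, 1448183_a_at, was lower in wildtype ozone by more (-0.37 ± 0.13), with 6.92, 6.55, 6.01 and 6.11 in air against 6.29, 6.18, 5.91 and 5.74 in ozone, values that also overlapped. In deficient mice that probe set differed by -0.15 ± 0.13. The other probe sets, 1416035_at and 1431981_at, differed by -0.18 ± 0.11 and 0.05 ± 0.09 in wildtype mice and by -0.09 and 0.08 in deficient mice. Only 1431981_at was above 0, by less than its SE in both genotypes. It was dim, with a mean log2 of 4.80 at percentile 14.5 of all probe sets. The other Hif1a probe sets were below 0 in both genotypes, by small amounts.

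Hif3a encodes an alpha subunit with splice forms that inhibit the other alpha subunits. Its brightest probe set, 1425428_at, read 7.25, 7.44, 6.91 and 6.78 in wildtype air and 7.20, 7.19, 6.76 and 6.74 in wildtype ozone. In deficient mice it read 7.40, 7.28, 6.87 and 7.20 in air and 7.07, 7.06, 6.43 and 6.78 in ozone. Within a group, the 2 males were the highest arrays every time. The ozone differences were -0.12 ± 0.09 in wildtype and -0.35 ± 0.09 in deficient mice, with overlapping groups. The dimmer 1421572_at went the other way (0.18 ± 0.06 and 0.05 ± 0.06) and 1425429_s_at differed by 0.09 in both genotypes (SE 0.10), so no direction holds for the gene as a whole.

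Arnt, the beta subunit that every HIF alpha protein needs to bind DNA, differed little in wildtype mice. Its brighter probe set, 1421721_a_at, read 6.36, 6.12, 5.63 and 5.26 in wildtype air and 5.96, 6.00, 5.83 and 5.62 in wildtype ozone. In deficient mice it read 5.68, 5.53, 5.35 and 5.60 in air and 6.08, 5.98, 5.77 and 5.60 in ozone. The wildtype air arrays spanned the whole range of the gene. The ozone difference was 0.01 ± 0.13 in wildtype and 0.32 ± 0.13 in deficient mice, a gap between genotypes of 0.31 ± 0.18. The other probe set, 1425064_at, gave -0.02 ± 0.07 and 0.19 ± 0.07.

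Among the regulators, Egln1 encodes PHD2, the prolyl hydroxylase that does most of the marking of HIF alpha in normal oxygen. Its probe set 1423785_at read 9.83, 9.95, 10.06 and 9.99 in wildtype air against 9.45, 9.50, 9.51 and 9.52 in wildtype ozone. In deficient mice it read 9.95, 10.11, 9.90 and 9.80 in air against 9.55, 9.50, 9.57 and 9.28 in ozone. All 8 ozone arrays (9.28 to 9.57) lay below all 8 air arrays (9.80 to 10.11). The differences were -0.46 ± 0.08 and -0.47 ± 0.08, close to 1.38-fold lower in both genotypes, and -0.43 and -0.45 with the 3 arrays carrying other tissues' markers left out. The second probe set, 1451110_at, differed by only -0.17 ± 0.09 and -0.03 ± 0.09, with overlapping air and ozone arrays, so the size of the difference depended on the probe set.

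Vhl encodes the subunit that recognises hydroxylated HIF alpha and was measured by 1 probe set, 1421071_at. It read 6.54, 6.56, 5.95 and 5.995 in wildtype air and 6.81, 6.77, 6.63 and 6.57 in wildtype ozone. In deficient mice it read 6.11, 5.99, 5.81 and 6.11 in air and 6.56, 6.78, 6.50 and 6.51 in ozone. Within each genotype every ozone array was above every air array, although the wildtype air males came close to the lowest ozone values. Groups did not overlap for 4 member probe sets in wildtype mice, beside 30.7% of all probe sets, and for 3 in deficient mice, beside 27.2%. The Vhl difference was 0.43 ± 0.10 in wildtype and 0.58 ± 0.10 in deficient mice, and 0.37 and 0.62 with the 3 arrays carrying other tissues' markers left out. In wildtype mice it was 0.63 in females alone and 0.24 in males alone.

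Egln3 encodes PHD3, a prolyl hydroxylase that is itself a HIF target. Its probe set 1418649_at was low on all but 1 of the 16 arrays. It read 4.81, 4.79, 5.55 and 4.99 in wildtype air and 4.77, 5.41, 4.75 and 4.81 in wildtype ozone. In deficient mice it read 4.70, 7.04, 4.75 and 5.15 in air and 4.67, 4.68, 4.75 and 5.27 in ozone. The high array, deficient air male 2, was the one with muscle and squamous markers, and wildtype ozone male 2, at 5.41, had the highest neutrophil signal (summed log2 15.28, at most 12.72 elsewhere); their part in these readings was not tested. The ozone differences were -0.10 ± 0.39 and -0.57 ± 0.39, and became 0.06 and 0.11 with the 3 arrays carrying other tissues' markers left out. The second probe set, 1418648_at, differed by -0.03 ± 0.20 and -0.22 ± 0.20.

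Adiponectin deficiency was then compared within each exposure. None of the 15 probe sets passed limma's adjusted p of 0.05 in air, beside 0.00884% of all probe sets; 5 had an unadjusted p under 0.05, beside 1564 of all 22626. None passed in ozone, beside 0.0133%; 2 were under 0.05 unadjusted, beside 2472 of 22626. None passed for the difference of the ozone effects between genotypes, beside 0%; 0 were under 0.05 unadjusted, beside 1121 of 22626. Nothing is read from these counts either, since the members were chosen with these groups in view. In air the deficient mice had lower readings of Hif1a 1448183_a_at (-0.32 ± 0.13), Arnt 1421721_a_at (-0.31 ± 0.13), Egln1 1451110_at (-0.28 ± 0.09), Epas1 (-0.26 ± 0.11) and Vhl (-0.26 ± 0.10). For Epas1, Arnt and Vhl the wildtype air males were the high arrays, and the wildtype air females overlapped the deficient mice. In ozone the member differences between genotypes ran from -0.17 to 0.18.

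The sexes were compared next, a contrast on which the genes had not been chosen. Of the 15 probe sets, 6 were lower in females at limma's adjusted p of 0.05 and 0 were higher, against 5.41% of all probe sets lower, 3.77% higher and 9.18% called in all. They belonged to 5 genes: Hif3a, Hif1a, Arnt (both probe sets), Epas1 and Vhl. Hif3a 1425428_at averaged 7.24 ± 0.14 (SD, n = 8) in males and 6.81 ± 0.21 in females, with both females below both males in all 4 groups, a separation found for 2.17% of all probe sets. Its difference was -0.43 ± 0.06 (limma, adjusted p = 0.00107). The female minus male difference of Epas1 was -0.33 ± 0.08 (limma, adjusted p = 0.0181), which was -0.67 in wildtype air, -0.07 in wildtype ozone, -0.19 in deficient air and -0.39 in deficient ozone.

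The other sex differences were close in size to these. They were -0.44 ± 0.09 for Hif1a 1448183_a_at (limma, adjusted p = 0.0105), -0.38 ± 0.09 for Arnt 1421721_a_at (limma, adjusted p = 0.0168), -0.20 ± 0.05 for Arnt 1425064_at (limma, adjusted p = 0.0279) and -0.26 ± 0.07 for Vhl (limma, adjusted p = 0.02995). The remaining probe sets of Hif1a and Hif3a did not pass, with -0.03 for 1427418_a_at, 0.10 for 1416035_at, 0.12 for 1431981_at, 0.01 for 1421572_at and -0.0017 for 1425429_s_at, so probe sets of one gene differed in whether they were called. Neither probe set of Egln1 or Egln3 passed. The ozone effects of females and males were compared by limma's test with a sex interaction, averaged over the genotypes. Of the 15 probe sets, 0 were called and 0 had an unadjusted p under 0.05 (smallest adjusted p 0.7105), beside 0.00442% of all probe sets called. Sex differences of opposite sign in wildtype and deficient mice can cancel in this average, so it does not describe either genotype alone. For Epas1, females had the smaller ozone fall in wildtype mice and the larger fall in deficient mice.

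**Figure D3:**
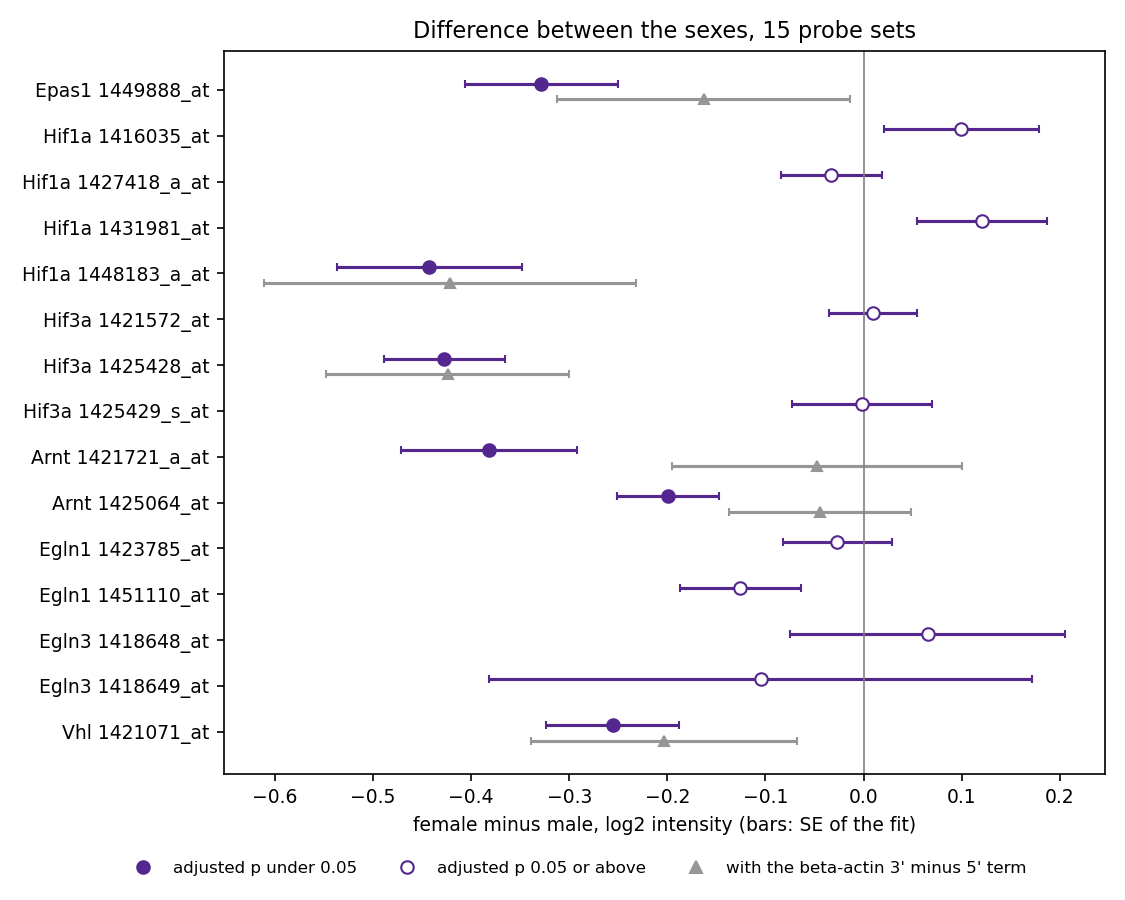
Female minus male in log2 intensity (horizontal axis) for the 15 probe sets (rows); circles give the fit with sex as a term, filled where the adjusted p was under 0.05, triangles give the 6 called probe sets after adding the 3′ minus 5′ difference of beta-actin as a term, and bars are the SE. Hif3a 1425428_at stays at -0.42 with a wider bar, whereas both Arnt probe sets move to -0.05 and -0.04.

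A measure of RNA quality moved with sex. The 3′ minus 5′ difference of the beta-actin control probe sets, which grows as RNA is shortened, averaged 0.51 ± 0.08 (SD, n = 8) in females, from 0.41 to 0.62, and 0.34 ± 0.08 in males, from 0.27 to 0.49. For Gapdh it was 0.23 ± 0.15 in females and 0.02 ± 0.07 in males, for pyruvate carboxylase 2.58 ± 0.20 and 2.12 ± 0.22, and for the transferrin receptor 1.89 ± 0.07 and 2.06 ± 0.10, in the other direction. With the beta-actin difference as a further term, none of the 15 probe sets passed (limma, 2 at an unadjusted p under 0.05), and the calls over all probe sets went from 2076 to 11. Hif3a 1425428_at then differed by -0.42 ± 0.12 (limma, adjusted p = 0.3885), Hif1a 1448183_a_at by -0.42 ± 0.19 (adjusted p = 0.612), Vhl by -0.20 ± 0.14 (adjusted p = 0.777) and Epas1 by -0.16 ± 0.15 (adjusted p = 0.865). Since the beta-actin difference moved with sex, the term widened the SE, from 0.06 to 0.12 for Hif3a 1425428_at and 0.08 to 0.15 for Epas1. The loss of calls therefore cannot tell a sex difference from a difference in RNA quality. The ozone differences of Epas1 with the beta-actin term were -1.75 and -1.60. As before, 5 and 4 member probe sets were called, and nothing is read from these counts. Over all probe sets, 4087 higher and 4080 lower were called in wildtype mice with the term, and 3039 and 2965 in deficient mice.

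Vhl lost its sex call when any 1 of 7 arrays was left out (adjusted p = 0.05181 to 0.06456): each of the 4 wildtype air arrays, deficient air female 1, wildtype ozone female 2 or deficient ozone male 2. Arnt 1425064_at lost it without any 1 of 6 (adjusted p = 0.05401 to 0.0592): wildtype air male 2, deficient air male 1 or female 1, or deficient ozone male 1, female 1 or female 2. With the 3 arrays that carried other tissues' markers left out, all 6 probe sets kept their call.

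Genes that act with the members, or that HIF proteins are known to activate, were then taken from 6 lists with 79 genes, each gene by its brightest probe set. The lists were chosen with earlier results of these data known, so the ozone p-values of their genes are not independent tests. With ozone, 13 rose and 12 fell in wildtype mice, beside 36.6% of all genes called (19.5% higher and 17.0% lower), and 13 rose and 10 fell in deficient mice, beside 30.1% (15.6% and 14.5%). Of these, 10 rose and 10 fell in both genotypes and 0 went opposite ways, the 2 comparisons being made on different mice. The median over the 79 genes was 0.01 in wildtype and 0.04 in deficient mice, against 0.03 and 0.01 over all genes. None of the 79 passed limma's adjusted p of 0.05 between genotypes in air (5 unadjusted) or in ozone (7 unadjusted), or for the difference of the ozone effects (5 unadjusted), beside 0.00807%, 0.0161% and 0% of all genes.

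**Figure D4:**
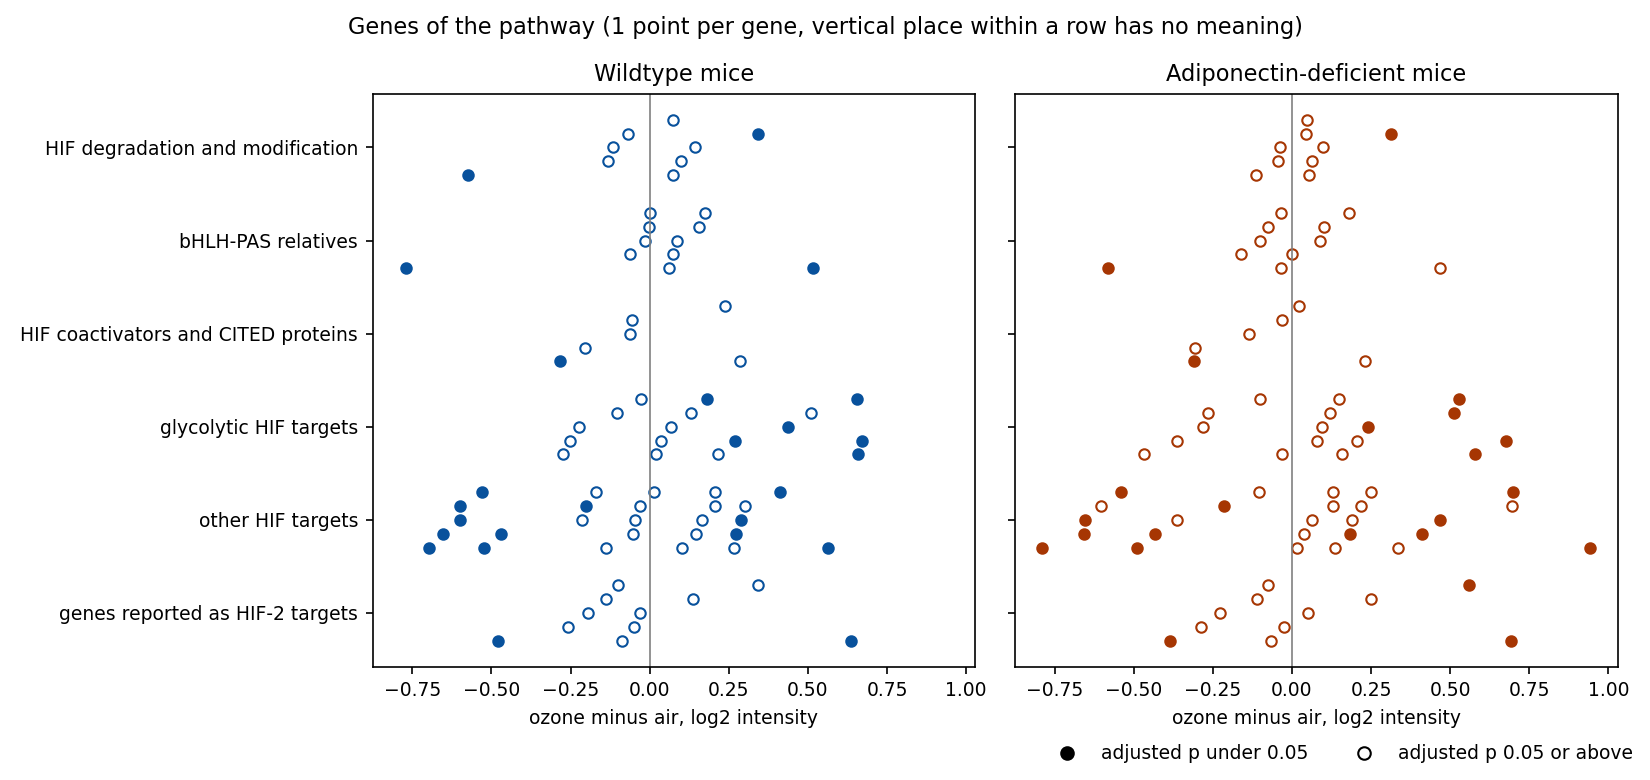
Ozone minus air in log2 intensity (horizontal axis) for the genes of the 6 pathway lists (rows), in wildtype mice (left) and adiponectin-deficient mice (right); each point is 1 gene, filled where the adjusted p was under 0.05. All filled points of the glycolytic row lie above 0, and the row of other targets has filled points on both sides.

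By their brightest probe sets, 6 of the 17 glycolytic targets rose and 0 fell in wildtype mice, beside 19.5% of all genes higher and 17.0% lower, and 5 rose and 0 fell in deficient mice, beside 15.6% and 14.5%. Their median differences were 0.13 and 0.12, against 0.03 and 0.01 over all genes. Ldha, which makes lactate from pyruvate, read 10.95 to 11.20 in wildtype air and 11.54 to 11.94 in wildtype ozone, a rise of 0.66 ± 0.09 (limma, adjusted p = 0.000112), and it rose by 0.53 in deficient mice. Pkm, the last enzyme of glycolysis, rose by 0.67 ± 0.10 (limma, adjusted p = 0.000143) and 0.68. Pgk1 rose by 0.65 and 0.58, on a probe set of the x_at type, whose probes can match other transcripts, and Pfkl rose by 0.44 and 0.51. For Ldha no wildtype ozone array overlapped a wildtype air array. Wildtype ozone male 2, the array with the highest neutrophil signal, was the highest wildtype ozone array for Ldha, Pkm and Pgk1, but not for Pfkl. Its part in these rises was not tested. The wildtype call of Pgam1 was lost without any 1 of 6 arrays (limma, adjusted p = 0.051 to 0.1004). That of Hk1 was lost without wildtype ozone male 2 (adjusted p = 0.06239), and in deficient mice without any 1 of 5 arrays. Slc2a1, the glucose transporter GLUT1, did not pass (0.02 ± 0.15 and -0.10 ± 0.15). Over all 35 probe sets of these genes, 12 rose and 2 fell in wildtype mice and 10 rose and 2 fell in deficient mice, the falls being second probe sets of Pdk1 and Pfkfb3.

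The 26 other HIF targets split. In wildtype mice 4 rose and 8 fell, beside 19.5% of all genes higher and 17.0% lower. In deficient mice 5 rose and 7 fell, beside 15.6% and 14.5%. The medians of the list were -0.04 and 0.10, against 0.03 and 0.01 over all genes. Lox, which cross-links collagen, rose by 0.56 and 0.94, Hmox1, which breaks down heme and is also an oxidant-response gene, by 0.41 and 0.70, and Plod1, a collagen lysyl hydroxylase, by 0.29 and 0.47. Bnip3, which promotes mitophagy, read 10.19 to 10.44 in wildtype air and 9.46 to 9.99 in wildtype ozone, a fall of 0.60 ± 0.13 (limma, adjusted p = 0.002003), and it fell by 0.79 in deficient mice. Kdm3a, a histone demethylase, fell by 0.60 and 0.54, Plod2 by 0.65 and 0.66, and the vasoconstrictor Edn1 by 0.52 and 0.65. Plod1 and Plod2, enzymes of one family, thus moved apart. For Vegfa, which was named after its values were seen and is given without a test, ozone minus air was -0.53 ± 0.12 and -0.43 ± 0.12. Ddit4 fell by 0.70 in wildtype mice (adjusted p = 0.0372) and P4ha2 rose by 0.27 (adjusted p = 0.0431), calls lost when any 1 of 6 and of 11 arrays, in turn, was left out (adjusted p up to 0.1336 and 0.1411), and with the 3 arrays carrying other tissues' markers left out (adjusted p = 0.0686 and 0.161).

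Of 11 genes reported as targets of HIF-2, the factor that Epas1 encodes, 1 rose and 1 fell in wildtype mice. That stands beside 19.5% of all genes higher and 17.0% lower. In deficient mice 2 rose and 1 fell, beside 15.6% and 14.5%. Ccnd1, a cyclin of the G1 phase, rose by 0.64 ± 0.08 (limma, adjusted p = 4.3e-05) and 0.69. Tek, the angiopoietin receptor of endothelial cells, read 11.46 to 11.52 in wildtype air and 10.87 to 11.12 in wildtype ozone, a fall of 0.48 ± 0.07 (limma, adjusted p = 0.000163), and fell by 0.39 in deficient mice. Cdh5 rose in deficient mice by 0.56, which did not pass with the 3 arrays carrying other tissues' markers left out (0.0534), and its other probe set fell by 0.50 in wildtype mice. The VEGF receptors Kdr (-0.26 ± 0.16 and -0.23 ± 0.16) and Flt1 (-0.09 ± 0.09 and -0.11 ± 0.09) did not pass. The median of this list was -0.09 in wildtype and -0.07 in deficient mice, against 0.03 and 0.01 over all genes.

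Of 9 genes that take part in HIF degradation and modification or in its control, Elob, the elongin B partner of VHL, rose by 0.34 and 0.31. Wsb1, another ubiquitin ligase subunit, fell in wildtype mice by 0.57. These were the only calls of this list by brightest probe sets. Over all 19 probe sets of its genes, 3 rose and 4 fell in wildtype mice, beside 18.2% of all probe sets in each direction. In deficient mice 4 rose and 3 fell, beside 14.5% higher and 14.8% lower. Egln2, the third prolyl hydroxylase, did not pass (0.07 ± 0.06 and 0.06 ± 0.06). Of 11 relatives of the HIF proteins, Ahr, the aryl hydrocarbon receptor, fell by 0.77 and 0.58, while its other probe set gave -0.16 and 0.07. Arntl, the clock partner of CLOCK, rose in wildtype mice by 0.52 (adjusted p = 0.0344): the wildtype ozone females read 6.95 and 6.35 and the males 5.63 and 5.74, against 5.37 to 5.77 in wildtype air. That call was lost without wildtype air male 1, female 1 or female 2 or wildtype ozone female 1 (adjusted p = 0.06736 to 0.1202), and with the 3 arrays carrying other tissues' markers left out (adjusted p = 0.0741). Of 6 coactivators and CITED proteins, Ncoa1 fell by 0.28 and 0.31.

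Between the sexes, 5 of the 79 pathway genes were higher in females and 4 lower (20 at an unadjusted p under 0.05), beside 7.17% of all genes called, 4.02% higher and 3.16% lower. Pdgfb, a growth factor for pericytes, was higher by 0.30 ± 0.04 (limma, adjusted p = 0.0013), and Arntl by 0.55 ± 0.13 (limma, adjusted p = 0.0158). Angptl4, an inhibitor of lipoprotein lipase, differed by -1.06 ± 0.24 (limma, adjusted p = 0.0155), with 8.51 and 9.06 in the wildtype air males against 6.98 and 6.88 in the females, but 8.70 and 9.24 against 9.15 and 8.43 in deficient ozone; with the 3 arrays carrying other tissues' markers left out it was -0.98 (adjusted p = 0.0667). Hmox1 differed by -0.24 (limma, adjusted p = 0.0196). Ahr, Crebbp, Cited2, Pfkp and Mxi1 were called as well but lost the call when any 1 of 6 to 12 arrays was left out, and with the beta-actin term 0 of the 79 genes were called (5 higher and 1 lower at an unadjusted p under 0.05).

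The genes with the pattern most like that of Epas1 were found by the root mean square difference between 2 genes' log2 values over the 16 arrays, after each gene's own mean was subtracted. Among 12118 candidate genes, with a median distance of 0.88, the nearest were Glp1r (0.21), the receptor of glucagon-like peptide 1; Plcb4 (0.30), a phospholipase; Bmpr2 (0.31), a receptor of bone morphogenetic proteins; Acaa1b (0.31), a peroxisomal thiolase; and Aspn (0.33), a matrix protein. Glp1r read 6.59 to 7.38 in wildtype air and 5.16 to 5.49 in wildtype ozone, and 6.48 to 6.60 and 4.995 to 5.46 in deficient mice. Its ozone difference was -1.52 ± 0.13 in wildtype and -1.35 ± 0.13 in deficient mice, and that of Bmpr2 was -1.38 ± 0.11 and -1.02 ± 0.11. All 16 arrays share the exposure contrast, which weighs heavily in this distance.

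**Figure D5:**
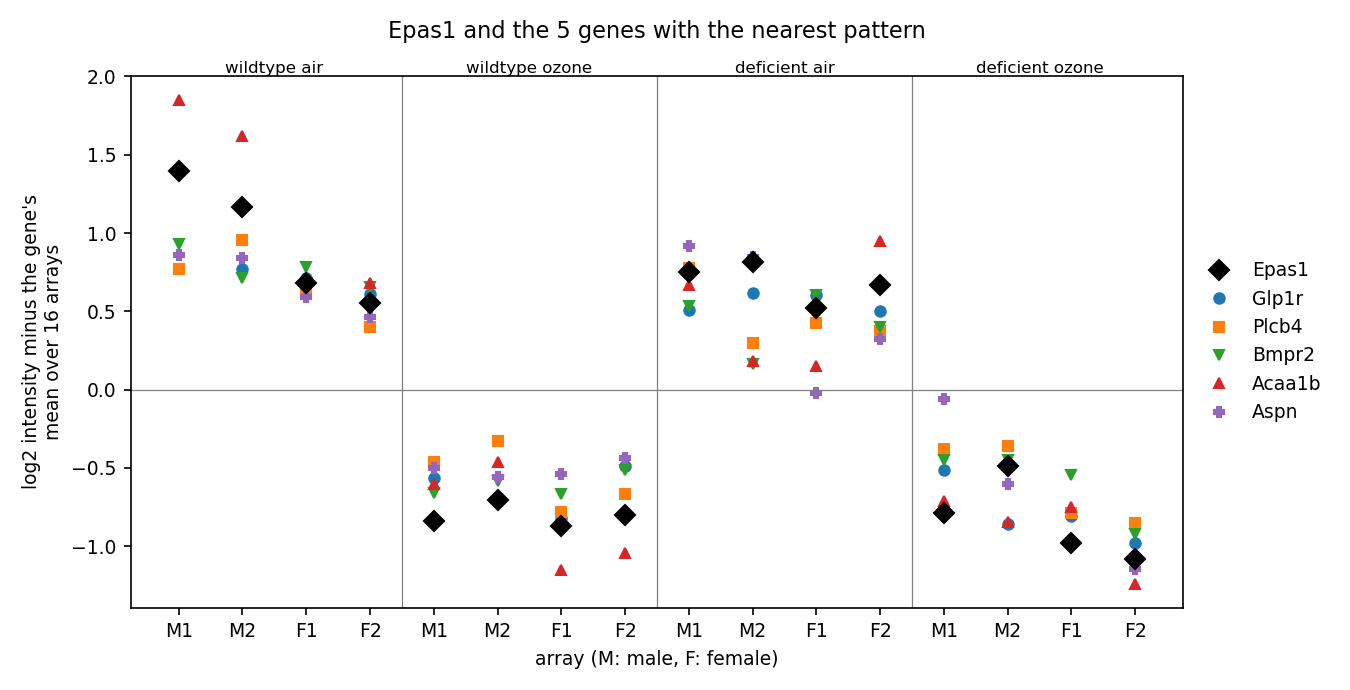
Log2 intensity minus each gene's own mean over the 16 arrays (vertical axis) on every array (horizontal axis, grouped by genotype and exposure), for Epas1 (diamonds) and the 5 genes nearest to it. All 6 genes sit above 0 on the air arrays and below 0 on the ozone arrays, apart from Aspn on deficient air female 1 (log2 6.76, just under its mean); Glp1r follows Epas1 with a root mean square difference of 0.21.

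The patterns of the other alpha subunits were flatter, and the distances correspondingly shorter. Nearest to Hif1a were Cpne1, Tpp1, Ctps2, Mob1a and Sarnp, at 0.07 to 0.08 with a median over candidates of 0.20. Nearest to Hif3a were Fech, the last enzyme of heme synthesis, Isca1, an iron-sulfur cluster protein, Slc6a2, the noradrenaline transporter, Slc31a1, a copper transporter, and Dhrs11, at 0.14 to 0.16 with a median of 0.32. Female minus male was -0.47 for Fech and Slc6a2 and -0.26 for Isca1, differences that the match to the Hif3a pattern favours and that are given without a test.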

How the data were processed

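Total RNA from the left lung was labelled as biotinylated cRNA and hybridised to Affymetrix arrays, per the labels' protocols. The authors deposited linear intensities summarised by RMA, per the submitters' processing notes; the labels used here name no software version. The planned tests had assumed log2 values, so log2 was taken here. Control probe sets (64 of 22690) were left out; of the 22626 tested, 20380 had 1 gene symbol, 691 several and 1555 none.

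A linear model was fitted to each probe set over all 16 arrays (lmFit and eBayes of limma 3.58.1, R 4.3.3); its terms were the 4 groups and sex, and p-values were adjusted over all probe sets by Benjamini-Hochberg, with 0.05 as the threshold. The fit was tested on simulated data. The number of arrays limits the precision. The p-values set each difference against the spread between mice, estimated over all 16 arrays with information shared across probe sets.

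Pathway and marker genes were taken by the probe set with the highest mean. Up to 4 called genes with the largest rise and fall of each list were eligible to be named, with the 5 nearest genes for Epas1, Hif1a and Hif3a; other genes are named for context. The members and lists were chosen with earlier results of these data known. Alternatives covered normalization, filters, the sex term, the sexes alone, thresholds, the replicate labels as a block, each array left out and 3 arrays left out; the beta-actin term was chosen after seeing the data. Promoters came from RefSeq (GRCm38.p6). Figures were drawn with Python 3.11.15 and matplotlib 3.10.9.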

Additional observations from a re-analysis of the deposited data

Results flagged for a closer look

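Within the groups of 4 mice, 5 of 60 checks found 1 array far from the other 3, by Dixon's test of the gap against the group's range; chance gives about 1 in 20. Egln3 1418649_at stood high on wildtype ozone male 2 (5.41, next 4.81) and on deficient ozone female 2 (5.27, next 4.75). Egln3 1418648_at stood high on deficient air male 2 (5.85, next 4.96), the array with muscle and squamous markers. Hif1a 1431981_at stood low on that array (4.48, next 4.80). Egln1 1451110_at stood low on wildtype ozone female 1 (8.62, next 8.74), the array whose description names room air.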

How the results depend on the processing

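Over 57 pathway calls and 1606 values, 1397 kept the call, 209 lost it, 0 reversed, and 22 genes or comparisons never lost it. The wildtype ozone count of 5 member probe sets became 3 with 1 probe set per gene, 3 in females alone, 2 in males alone, 3 at an adjusted p under 0.01, and 3 to 6 with each array left out. As before, nothing is read from these member counts, since the members were chosen with this contrast known. The 13 pathway genes higher in wildtype ozone became 20 when arrays were shifted to a common median, which moved the median over all probe sets from 0.02 to 0.05 and the split of calls from 4111 higher and 4112 lower to 5102 and 3482. The 10 pathway genes lower in deficient ozone became 6 in males alone. The 6 member probe sets lower in females became 1 at an adjusted p under 0.01 and 0 with the beta-actin term, and 4 to 6 with each array left out. The pathway genes higher in females (5) became 3 with the 3 arrays carrying other tissues' markers left out, 1 at an adjusted p under 0.01, 0 with the beta-actin term and 2 to 6 with each array left out; those lower (4) became 1, 0, 0 and 2 to 5.

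The calls over all probe sets in wildtype ozone (8223) became 4546 with 1 probe set per gene, 3022 in females alone and 5035 at an adjusted p under 0.01; in deficient ozone (6639) they became 3761, 3805 and 4072, and 2688 in males alone. For sex (2076) they became 701 with 1 probe set per gene, 603 at an adjusted p under 0.01, 1360 without wildtype air female 1 and 1379 without deficient air female 1. For genotype in air (2) they became 1 with 1 probe set per gene, for genotype in ozone (3) they ranged up to 19, and for ozone by sex (1) from 0 up to 169 without deficient air male 1.

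With the replicate block in place of sex, 5 and 4 member probe sets were called with ozone in wildtype and deficient mice. From these member counts, too, nothing is read. The pathway counts were 12 higher and 11 lower and 13 higher and 9 lower. Over all probe sets, 3975 higher and 4061 lower were called in wildtype mice with the block, and 3196 and 3302 in deficient mice. The labels are balanced over the groups, so the block cannot move a group difference and changes only its error. Mice with the same label deviated together weakly (r of -0.04 to 0.13 for males and -0.10 to 0.09 for females), so the labels give no pairing.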
